A study of Mus musculus with 4 samples.

Results

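The COUP-TF nuclear receptors and their relative Nr2e1 were followed through single-cell (sc) RNA-Seq of the developing mouse cortex. The 4 genes were taken by name from a table of 16600 genes, all 4 were present, and 33 other nuclear receptor genes stood in the same table. They were picked because their levels differed between pallial cells (a UMI of Neurod2 or Eomes and none of Dlx1 or Dlx2) and subpallial cells (a UMI of Dlx1 or Dlx2 and none of Neurod2 or Eomes), so that contrast is given as a description, with no test. A UMI, or unique molecular identifier, is a tag that counts each captured transcript 1 time. The rule that picked the genes also viewed them by library, and so by genotype. CD24+ CD45- cells had been sorted from the cortex of 4 C57BL/6J fetuses at E18.5, with 1 droplet library per fetus. CD24 marks neurons and CD45 blood cells. Libraries WT3 and WT6 came from wild-type (Setd5+/+) fetuses, and Het5 and Het9 from fetuses heterozygous for Setd5 (Setd5+/-) through the Setd5GFP transgenic allele, described as a heterozygous knockout. Setd5 encodes a chromatin regulator of the SET domain family.

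COUP-TFs are orphan nuclear receptors, transcription factors with a zinc finger DNA-binding domain and a domain that resembles those of hormone receptors. They bind pairs of AGGTCA-like half-sites and act mostly as repressors. Nr2f1 (COUP-TFI) forms a gradient over the cortical sheet and gives caudal and lateral areas their sensory identity. Nr2f2 (COUP-TFII) marks caudal and medial parts of the telencephalon and, with Nr2f1, the interneurons that migrate from the caudal ganglionic eminence. Nr2f6 (EAR2) is the divergent member of the family. Nr2e1 (Tlx) maintains neural stem cells, where it acts with histone-modifying corepressors.

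All 4 genes lie on the minus strand of GRCm38, the build also called mm10, in the GENCODE M21 annotation. Nr2f1 (ENSMUSG00000069171.14) spans chr13:78188973-78199757 with up to 3 exons in its transcripts, and Nr2f2 (ENSMUSG00000030551.14) spans chr7:70351944-70366735, also with up to 3. Nr2f6 (ENSMUSG00000002393.14) spans chr8:71374123-71381960 and Nr2e1 (ENSMUSG00000019803.11) spans chr10:42561963-42583632, with up to 4 and 9 exons. The start of Nr2f1 is overlapped by the antisense gene A830082K12Rik, which starts 1740 bp away. That of Nr2f2 is overlapped by B130024G19Rik, a noncoding gene on the plus strand (chr7:70364910-70489972) that starts 1825 bp away, spans the sequence printed here and was not analysed here. The start of Nr2e1 lies 190 bp from that of Ostm1, a gene on the opposite strand. The sequence just upstream is shown for Nr2f2 and Nr2e1, because these members reached their highest levels in cells of different kinds, and only where it lies in no exon of a protein-coding gene. The 250 bases before the RefSeq start of Nr2f2 are chr7:70366747-70366996, and the 189 bases between the first exons of Nr2e1 and Ostm1 are chr10:42583633-42583821. Both are given 5′ to 3′ on the minus strand from the RefSeq windows of GRCm38.p6, and capitals mark E-boxes (CANNTG), the letters that basic helix-loop-helix factors bind.
Nr2f2: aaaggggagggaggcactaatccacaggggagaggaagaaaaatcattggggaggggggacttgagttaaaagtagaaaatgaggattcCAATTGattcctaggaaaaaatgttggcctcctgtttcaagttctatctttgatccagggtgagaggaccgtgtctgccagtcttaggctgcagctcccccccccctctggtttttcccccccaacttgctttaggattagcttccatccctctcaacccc
Nr2e1: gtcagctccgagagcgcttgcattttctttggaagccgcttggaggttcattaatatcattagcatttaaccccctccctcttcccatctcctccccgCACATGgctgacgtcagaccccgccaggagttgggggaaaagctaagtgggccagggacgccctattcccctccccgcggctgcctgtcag

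The windows of 250 bases before the RefSeq start differed in base composition. That of Nr2f1, chr13:78198874-78199123, is the first of 2 RefSeq windows of this gene, and the other was not examined. It lies wholly within an exon of a longer annotated Nr2f1 transcript, so its values describe exon sequence. In the windows of Nr2f6 and Nr2e1, 242 and 189 of the 250 bases lay outside exons of protein-coding genes. That of Nr2f2 had 50% G and C and 1 CpG, while those of Nr2f1, Nr2f6 and Nr2e1 had 72%, 82.4% and 58% and 22, 42 and 15 CpGs. The medians over 32851 RefSeq windows of the same length were 52.4% and 6 CpGs. AGGTCA, the COUP-TF half-site, its variant AAGTCA, read by Nr2e1, and TAATTA, the core of homeodomain sites, were searched on both strands and had no match in the 4 windows. They occurred in 14.02%, 13.1% and 4.84% of all windows. CANNTG, which reads alike on both strands, had 1 match in Nr2f2, 2 in Nr2f6, 1 in Nr2e1 and none in Nr2f1, and occurred in 66.2% of all windows. Since the other motifs had no match, no matches of different motifs overlapped, and a match describes letters only.

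The 4 libraries held 1445 to 1954 cells with 8205330 to 11742956 UMIs, and medians of 5398 to 5997 UMIs per cell. Setd5, the targeted gene, averaged 1.07 to 1.18 counts per 10000 UMIs in the Setd5+/+ libraries against 0.540 to 0.586 in the Setd5+/- libraries. Xist, the RNA of the inactive X chromosome, averaged 20.6 and 21.5 in the Setd5+/+ libraries and 0.152 and 0.310 in the Setd5+/- libraries. Ddx3y, a Y-linked gene, was at 0 and 0.000602 against 0.492 and 0.465. Thus the genotypes also differed in the sex of the fetuses, and the effects of sex and genotype cannot be told apart in any comparison of these libraries. A cell barcode occurred in all 4 libraries for 224 cells, all of them in 2 clusters led by Dct and Pmel (melanocyte genes) and by Cd74 and H2-Ab1 (immune genes), where 140 of 147 and 84 of 132 cells were of this kind. Levels in those clusters are therefore not 4 independent values. Of the cells with such a barcode, 9 were pallial and 2 subpallial.

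Pallial cells numbered 747 in WT3, 828 in WT6, 901 in Het5 and 829 in Het9. Subpallial cells numbered 420, 612, 413 and 325. A further 563 cells had UMIs of both classes and 924 had none of the 4 class genes. The excitatory neuron genes Neurod6 and Tbr1, which the rule did not use, averaged 11.3 and 1.26 counts per 10000 in pallial cells and 0.263 and 0.0242 in subpallial cells. Gad1, Gad2 (GABA synthesis) and Dlx5 averaged 0.0142, 0.101 and 0.0413 in pallial cells and 0.751, 2.21 and 2.17 in subpallial cells. Scrublet called 64 cells doublets, 34 of them among cells of both classes, 16 among pallial and 6 among subpallial cells.

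Averaged over each class, Nr2f1 was higher in pallial cells, Nr2e1 and Nr2f6 leaned to the subpallial cells, and Nr2f2 overlapped between the classes. Each class was a mix. Subpallial cells with Htr3a and no Lhx6, described below, had 3.85 to 8.16 Nr2f1 counts per 10000. That was above the pallial value of the same library in WT6, Het5 and Het9. Nr2f1 averaged 4.32, 3.76, 3.95 and 3.77 counts per 10000 in the pallial cells of WT3, WT6, Het5 and Het9. In subpallial cells it averaged 1.42, 1.30, 1.57 and 2.46. All 4 subpallial values lay below all 4 pallial ones, as they did for 25.7% of the 7966 genes compared, and the mean difference was -1.22 ± 0.43 on the log2(level + 0.1) scale (SD, n = 4 libraries). The gap was smallest in Het9 (-0.60), against -1.54, -1.46 and -1.28 in WT3, WT6 and Het5.

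Nr2f2 averaged 1.25, 1.37, 1.06 and 0.824 counts per 10000 in pallial cells and 0.704, 0.807, 0.814 and 1.36 in subpallial cells. Its pallial value was the higher in WT3, WT6 and Het5, and its subpallial value in Het9 alone. The log2 difference was -0.28 ± 0.65 (SD, n = 4), so no order of the classes held beyond the spread between libraries. It stood at -0.75 and -0.70 in the Setd5+/+ libraries and at -0.35 and 0.66 in the Setd5+/- libraries.

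Nr2e1 averaged 0.145, 0.143, 0.168 and 0.119 counts per 10000 in pallial cells and 0.405, 0.363, 0.492 and 0.413 in subpallial cells. Every subpallial value lay above every pallial one, as for 19.8% of the genes compared, and the ratio of the means was 2.90. The 924 cells with none of the class genes had more of it still, at 0.666, 0.706, 0.950 and 0.540. Nr2f6 was low throughout, at 0.0514 to 0.0993 in pallial cells and 0.106 to 0.141 in subpallial cells, and it too was higher in cells with none of the class genes (0.181 to 0.275). It did not reach the minimum mean of 0.1 counts per 10000 over both classes.

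**Figure D1:**
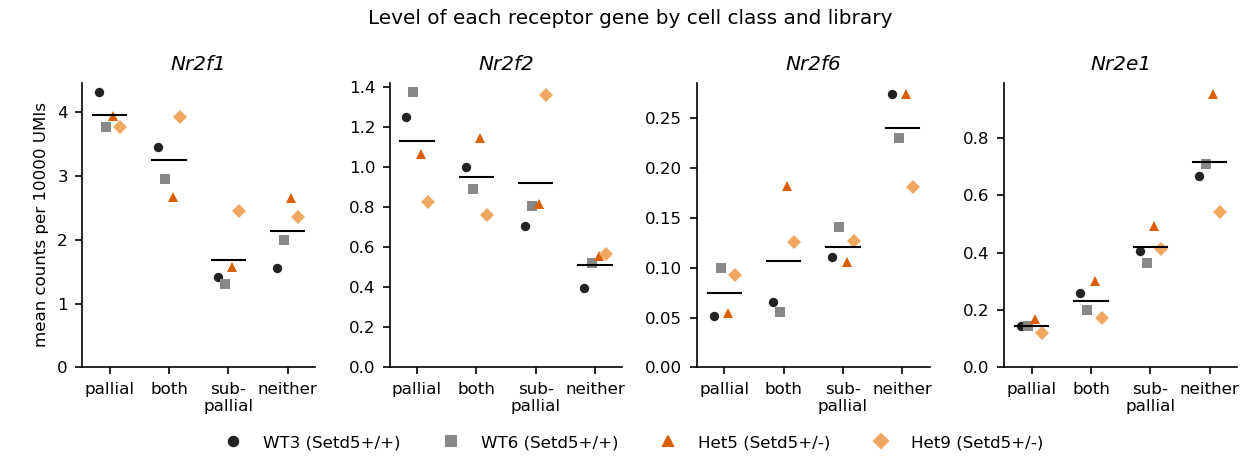
Mean counts per 10000 UMIs (vertical axes, from 0) of each receptor gene in pallial cells, cells with UMIs of both classes, subpallial cells and cells with none of the class genes, with 1 point per library and a bar at the mean of the 4 libraries. The Nr2f1 points of pallial cells (3.76 to 4.32) lie above those of subpallial cells (1.30 to 2.46), and the order is turned round for Nr2e1 (0.119 to 0.168 against 0.363 to 0.492).

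For Nr2f1, the class means lay nearer to each other among cells that the rule placed by a single UMI. The 182 pallial cells with a single class UMI had 3.31 ± 0.203 Nr2f1 counts per 10000, and the 3123 with at least 2 had 3.99 ± 0.281 (SD, n = 4). The 200 subpallial cells with a single class UMI had 2.19 ± 0.575, and the 1570 with at least 2 had 1.62 ± 0.643. Nr2f2 stood at 1.197 ± 0.654 against 1.13 ± 0.246 in the pallial cells so divided, and at 0.881 ± 0.522 against 0.931 ± 0.336 in the subpallial ones. Nr2e1 was at 0.455 ± 0.103 against 0.126 ± 0.0243 in pallial cells and at 0.611 ± 0.177 against 0.397 ± 0.0633 in subpallial cells.

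For Nr2f1 and Nr2e1, the same order was seen in the share of cells with a UMI. Nr2f1 was detected in 66.8%, 64.4%, 66.8% and 67.6% of pallial cells and in 28.3%, 26.1%, 29.8% and 43.4% of subpallial cells. With every cell thinned to 3000 UMIs (526 shallower cells, 103 to 169 per library, were left out), it was detected in 51.9% ± 3.19 and 23.5% ± 7.95 of them (SD, n = 4). Nr2e1 was detected in 7.32% of all pallial and 17.97% of all subpallial cells. Nr2f2 was detected in 25.4%, 25.4%, 21.4% and 19.9% of the pallial cells of WT3, WT6, Het5 and Het9 and in 17.1%, 16.5%, 17.9% and 25.2% of their subpallial cells, so that Het9 had the classes in the opposite order to the other libraries. As background, the cluster led by Cd74 and H2-Ab1, which should lack these genes, had Nr2f1 in 3.79%, Nr2e1 in 0.758% and Nr2f2 in 0 of 132 cells. For independent cells the latter would allow a share with a UMI of up to 2.27%, but 84 of the 132 had barcodes found in all libraries. Its cells were shallower, with a median of 1939 UMIs against 5825 in pallial and 5338 in subpallial cells. Such values cover counting error only.

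To see which cells carried the members, all cells were clustered without the 4 genes and without Setd5. The 14 clusters are named by genes among their 10 leading ones by fold, and called after a cell type only where at least 3 of its markers were over 2-fold above the other cells. Excitatory neuron-like cells formed the cluster led by Tfap2d and Thsd7a (109 cells). Clusters with Cntn2 and Jakmip1 (1074 cells), Cxcl12 and Nrn1 (1061 cells) or Tac2 and Synpr (690 cells) among their leading genes were mostly pallial cells and are given no cell type here. Progenitors comprised a radial glia-like cluster led by Ttr and Aldoc (714 cells), an intermediate progenitor-like one led by Neurog2 and Eomes (361 cells) and a cycling one led by Hells and E2f1 (169 cells). On the subpallial side stood cycling cells with Dlx1 and Dlx2, led by Top2a (727 cells), a subpallial progenitor-like cluster led by Gsx1 and Nbl1 (387 cells), an interneuron-like cluster led by Npy and Htr3a (584 cells) and a striatal neuron-like cluster led by Ebf1 and Zfp503 (372 cells). A Cajal-Retzius or hem-like cluster led by Reln and Rspo3 held 35 cells.

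Nr2f1 was highest in the small Tfap2d cluster, with 10.1, 11.6, 9.0 and 7.39 counts per 10000 in WT3, WT6, Het5 and Het9. All 4 values lay above those of the next cluster, led by Tac2 (5.81, 4.55, 5.25 and 4.65). Below it, each of the next 9 steps in the order was within the spread of the libraries. The Cxcl12 cluster had 4.44 ± 0.223 and the radial glia-like cluster 3.79 ± 0.517, followed by the Hells cluster (3.38 ± 0.704), the intermediate progenitor-like cluster (2.90 ± 0.377) and the Cntn2 cluster (2.83 ± 0.247; SD, n = 4). Among the subpallial clusters it stood at 2.29 ± 1.24 in the interneuron-like cluster, 1.47 ± 0.635 in the Gsx1 cluster and 1.43 ± 0.419 in the Top2a cluster. The striatal neuron-like cluster had 0.809 ± 0.261, below the Top2a cluster in all libraries. Of the 13 steps between neighbors in the order of clusters, 10 overlapped.

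Nr2f2 was concentrated in 4 clusters. It was highest in the Cajal-Retzius or hem-like cluster (4.98, 5.63, 7.41 and 8.68 counts per 10000, from 7, 13, 7 and 8 cells), where 33 of the 35 cells had a UMI. The Tfap2d cluster followed, with 3.47, 6.82, 6.35 and 1.99, a spread that overlapped its neighbors in the order. The Tac2 cluster had 3.51, 2.48, 2.56 and 2.15, and the interneuron-like cluster 1.17, 1.52, 2.18 and 3.38. In every library these 4 clusters exceeded the next one, the Cxcl12 cluster (0.451 to 0.876). All other clusters averaged under 0.6 and the Cd74 cluster had no UMI.

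The balance of the COUP-TFs therefore differed among cell groups. The ratio of the Nr2f2 level to the Nr2f1 level is compared here between clusters only, since the capture of the 2 transcripts is not known. It was 0.183 in the Cntn2 cluster, 0.163 in the Cxcl12 cluster and 0.150 in the radial glia-like cluster. It rose to 0.528 in the Tac2 cluster, 0.900 in the interneuron-like cluster and 2.66 in the Cajal-Retzius or hem-like cluster. The interneuron-like ratio was 0.910, 1.01, 0.928 and 0.839 in the 4 libraries, although both levels varied among them.

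Nr2e1 marked 1 group, the radial glia-like cells, of which 23.4% were pallial and 11.9% subpallial by the class rule. It averaged 1.49, 1.17, 1.39 and 1.40 counts per 10000 there, above every library of every other cluster, and was detected in 54.6% of the cells at their own depth and in 29.8% at 3000 UMIs. Subpallial progenitors followed, with 0.550 ± 0.196 in the Gsx1 cluster and 0.488 ± 0.0247 in the Top2a cluster (SD, n = 4). The intermediate progenitor-like cluster had 0.332 ± 0.0652 and the Hells cluster 0.294 ± 0.152. In the Cntn2 and Tac2 clusters it was at 0.0152 ± 0.0128 and 0.0344 ± 0.0159. No UMI was found in the 147 cells of the Dct cluster. For 147 independent cells this would allow up to 2.04% of cells with a UMI, but 140 of them had barcodes found in all libraries, so no limit can be set.

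Nr2f6 showed the weakest pattern, with 460 UMIs in all. It was highest in the melanocyte-like Dct cluster (0.407, 0.592, 0.487 and 0.439 counts per 10000), where most cells shared barcodes among libraries. The Gsx1 cluster (0.269 ± 0.0873) and the radial glia-like cluster (0.261 ± 0.0599) came next and overlapped. All other clusters averaged under 0.1, with 2 to 52 UMIs each.

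**Figure D2:**
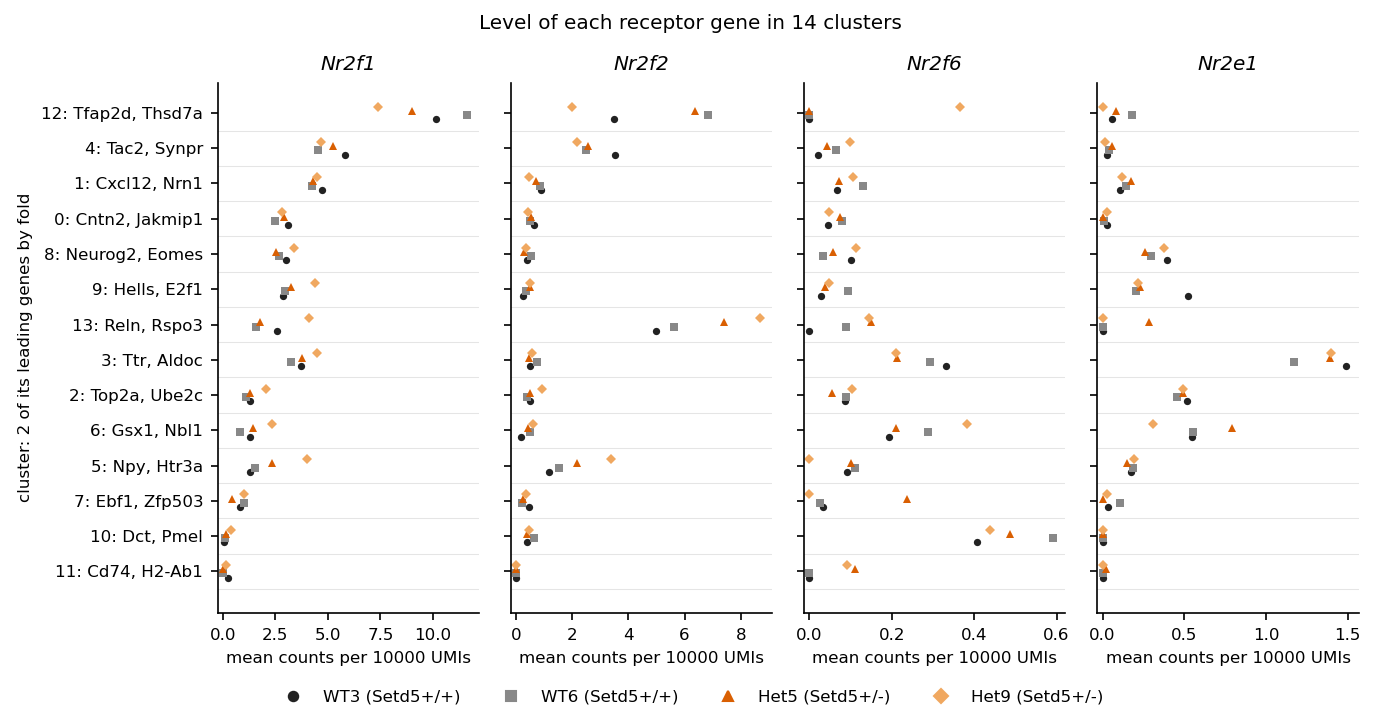
Mean counts per 10000 UMIs (horizontal axes, a scale of its own for each gene) of the 4 receptor genes in 14 clusters (rows, named by number and 2 of their leading genes), with 1 point per library. Nr2f1 peaks in the Tfap2d cluster (7.39 to 11.6), Nr2f2 in the Reln cluster (4.98 to 8.68) and Nr2e1 in the Ttr cluster (1.17 to 1.49), while Nr2f6 stays under 0.6 in all.

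The genes whose levels over the 14 clusters were most like those of a member were found among 8137 genes, as a description of 14 points that share libraries. For Nr2f1 they were Sec61a2 (Pearson's r = 0.962), Zfp13 (0.938) and Dcun1d2 (0.933). For Nr2f2 they were Zfp866 (0.925), Them4 (0.892) and Clptm1 (0.875), and for Nr2f6 Tmco1 (0.926), Hibadh (0.903) and Lman1 (0.897). For Nr2e1 they were Esf1 (0.947) and the neural progenitor transcription factors Sox3 (0.947) and Sox21 (0.940). Among the members, Nr2f1 had r = 0.656 with Nr2f2, 0.345 with Nr2e1 and -0.31 with Nr2f6. Nr2f2 had r = -0.067 with Nr2e1 and -0.069 with Nr2f6, and Nr2e1 and Nr2f6 had r = 0.240.

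The antisense neighbor A830082K12Rik followed Nr2f1, with r = 0.931 over the clusters. It averaged 0.521, 0.430, 0.480 and 0.481 counts per 10000 in pallial cells and 0.157, 0.178, 0.198 and 0.275 in subpallial cells. The Tfap2d cluster had the highest level here too (1.26 ± 0.145; SD, n = 4). The strand setting of the counting is not given in the sources used here, so reads from the stretch where both genes overlap cannot be told apart. Ostm1, the neighbor of Nr2e1, averaged 0.169 to 0.215 over all cells of a library. Ocel1, which overlaps Nr2f6, averaged 0.0291 to 0.0386.

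Within clusters, Nr2f1 was higher in cells that also had an Nr2f2 UMI. In the Cxcl12 cluster it averaged 10.4 ± 1.27 counts per 10000 in 171 cells with Nr2f2 and 3.27 ± 0.436 in 890 cells without (SD, n = 4 libraries). In the Tac2 cluster the values were 7.71 ± 0.335 in 331 cells and 2.54 ± 0.317 in 359 cells. In the radial glia-like cluster they were 7.29 ± 0.647 and 2.97 ± 0.662, and in the Cntn2 cluster 6.30 ± 0.478 and 2.23 ± 0.176. The interneuron-like cluster showed the widest ratio, with 5.72 ± 1.93 in 153 cells and 0.830 ± 0.407 in 431 cells. In each of these clusters, and in the Tfap2d cluster (13.4 ± 0.769 and 6.42 ± 1.42), the lowest library with Nr2f2 exceeded the highest without, an order that 3.38% of all genes had in the Cxcl12, 2.87% in the Tac2, 2.78% in the radial glia-like, 2.92% in the Cntn2, 2.43% in the interneuron-like and 1.82% in the Tfap2d cluster. Cells with Nr2f2 were deeper in 5 of the 6, and the part of depth was not tested. The median depths of the cells so divided were 4020 and 4024 UMIs in the interneuron-like cluster, 5665 and 5036.5 in the Cxcl12 cluster and 4346 and 3448 in the Tfap2d cluster, with and without Nr2f2.

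**Figure D3:**
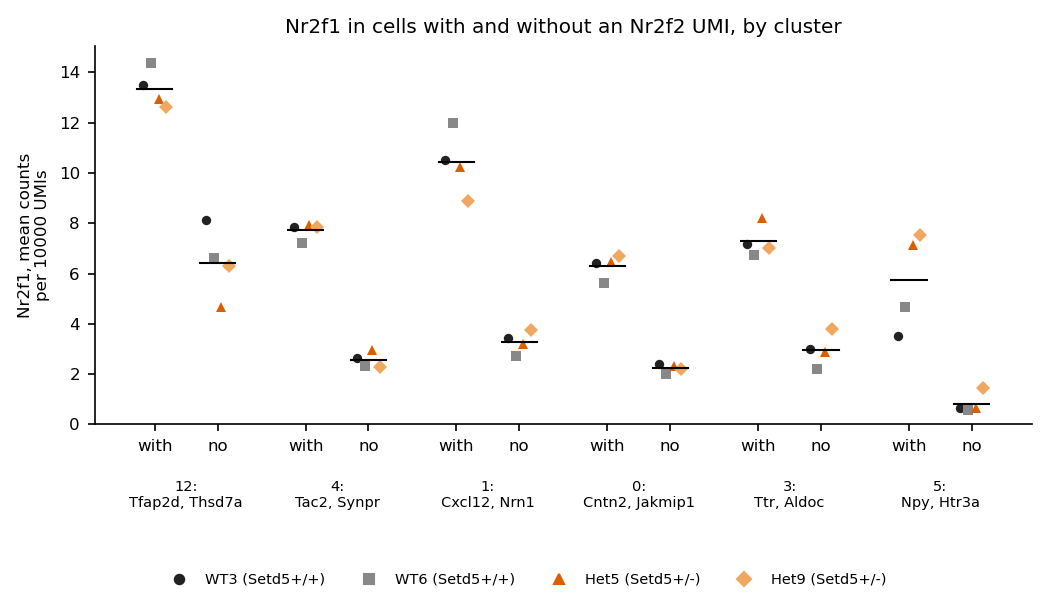
Mean counts per 10000 UMIs of Nr2f1 (vertical axis, from 0) in cells with and without an Nr2f2 UMI in 6 clusters, with 1 point per library and a bar at the mean. In all 6 clusters the cells with Nr2f2 lie above those without, for example 3.53 to 7.52 against 0.552 to 1.43 in the cluster led by Npy and Htr3a.

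The pallial cells were divided by stage and type. Nr2f1 averaged 4.20 ± 0.277 counts per 10000 in the 1583 cells with Eomes, the gene of intermediate progenitors, and 3.73 ± 0.424 in the 1722 cells with Neurod2 and no Eomes. Nr2f2 stood at 1.12 ± 0.173 and 1.15 ± 0.319, and Nr2e1 at 0.242 ± 0.0472 and 0.0547 ± 0.0132 (SD, n = 4). Of the 3, Nr2e1 alone had libraries that did not overlap between these groups, higher with Eomes, as had 19.3% of all genes, while 23.1% were lower. The 2182 pallial cells with Bcl11b or Fezf2, genes of deep-layer neurons, had 4.09 ± 0.341 for Nr2f1 and 1.34 ± 0.196 for Nr2f2. The 314 pallial cells with the cycling genes Top2a or Mki67 had 3.74 ± 0.502 and 0.728 ± 0.225, with 0.386 ± 0.0690 for Nr2e1.

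The subpallial cells were far less even. The 92 cells with Htr3a, a receptor gene of caudally derived interneurons, and no Lhx6 had 3.85, 4.21, 8.16 and 7.31 Nr2f1 counts per 10000 in WT3, WT6, Het5 and Het9, and 3.27, 4.63, 6.47 and 5.81 for Nr2f2. The 305 cells with Lhx6, the gene of medially derived interneurons, had 0.818, 1.23, 0.384 and 1.21 for Nr2f1 and 0.596, 0.527, 0.144 and 1.03 for Nr2f2. For either gene, the lowest library of the Htr3a cells exceeded the highest of the Lhx6 cells, as for 3.54% of all genes. The 73 cells with Ebf1 had 1.52 ± 0.556 for Nr2f1 and 0.548 ± 0.560 for Nr2f2. The 813 cells with Top2a or Mki67 had 1.37 ± 0.213 and 0.556 ± 0.142, and the highest of these values for Nr2e1 (0.550 ± 0.0565; SD, n = 4).

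Subpallial cells with Zic1 or Zic4, zinc finger genes of the septum and other ventral regions, had the least Nr2f1 of these groups in every library. Nr2f1 averaged 0.0861, 0.172, 0.368 and 0.986 counts per 10000 in 81, 146, 70 and 10 such cells, and Nr2f2 averaged 0.138, 0.105, 0.0447 and 1.77. These cells were 19.3% and 23.9% of the subpallial cells in WT3 and WT6, 16.9% in Het5 and 3.08% in Het9, the library with the highest subpallial Nr2f1 and Nr2f2. The Htr3a cells without Lhx6 were 4.29%, 5.07%, 4.36% and 7.69%.

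**Figure D4:**
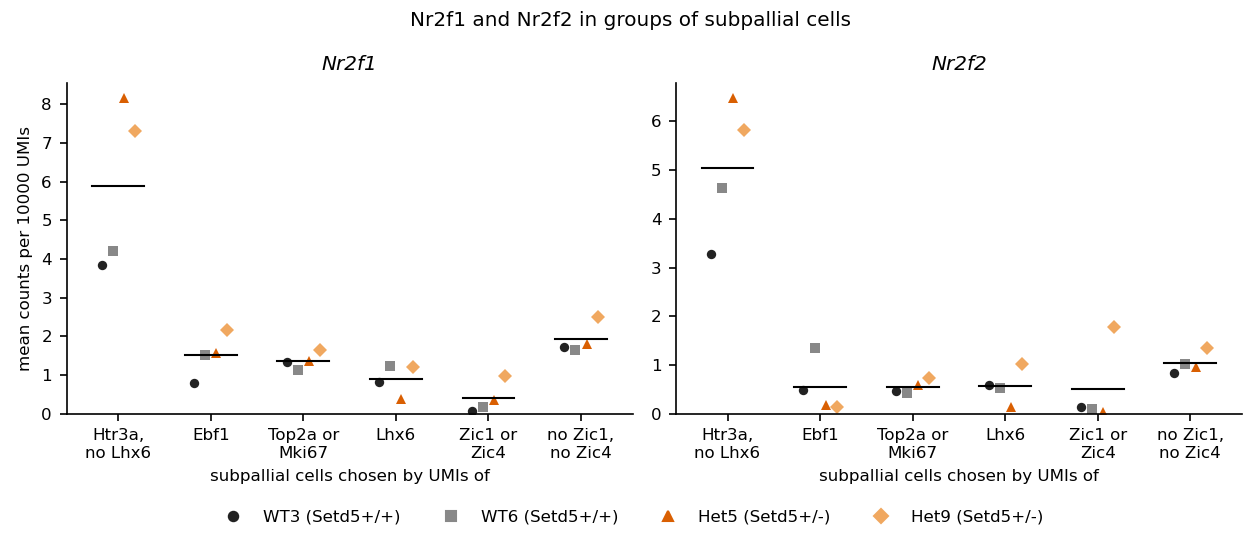
Mean counts per 10000 UMIs (vertical axes, from 0) of Nr2f1 and Nr2f2 in subpallial cells divided by a UMI of the genes named below each group, with 1 point per library and a bar at the mean. Cells with Htr3a and no Lhx6 are highest for both genes (3.85 to 8.16 and 3.27 to 6.47), and cells with Zic1 or Zic4 are lowest for Nr2f1 in all 4 libraries (0.0861 to 0.986).

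The comparison of genotypes asked whether the receptors changed with loss of 1 copy of Setd5. The authors had already listed Nr2f1 as upregulated in Setd5+/- cells of a cluster from this experiment. Members were chosen with earlier results of these data known, so these tests are not independent of the choice. No member passed limma with Benjamini-Hochberg adjustment (threshold 0.05) in all cells, where 0.0860% of 8137 genes did. Nr2f1 averaged 3.101, 2.61, 3.07 and 3.30 counts per 10000 over all cells of WT3, WT6, Het5 and Het9, and the log2 difference was 0.16 (SE 0.085, limma adjusted p = 0.994), from 0.037 without WT6 to 0.28 without WT3. For Nr2f2 the values were 0.977, 1.003, 0.944 and 0.905, a difference of -0.09 (SE 0.062, limma adjusted p = 0.994), with both Setd5+/- libraries lower, as in 16.4% of genes. Nr2f6 and Nr2e1 differed by -0.0032 (SE 0.11) and -0.0054 (SE 0.14), and their libraries overlapped. None of the 4 had an unadjusted p under 0.05.

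In pallial cells, Nr2f2 was the member that stood apart. Its values of 1.25 and 1.37 in WT3 and WT6 lay above 1.06 and 0.824 in Het5 and Het9, a log2 difference of -0.44 (SE 0.11, unadjusted p = 0.00167 and adjusted p = 0.656 from limma). Of 7879 genes tested there, 0.0888% were called, 3.83% had an unadjusted p under 0.05 and 16.6% had both Setd5+/- libraries lower. In cells thinned to 3000 UMIs, Nr2f2 was detected in 19.1% and 17.9% of the Setd5+/+ and in 15.01% and 13.6% of the Setd5+/- pallial cells. Without Het5 the difference was -0.61 (limma adjusted p = 0.0230), where the lone Setd5+/- library is assumed to vary like the others. It was not called without Het9 (-0.28, limma adjusted p = 0.9999), WT3 or WT6 (limma adjusted p = 0.544 and 0.726). The Tfap2d cluster, rich in Nr2f2, made up 4.55% and 3.14% of the Setd5+/+ and 2.11% and 2.53% of the Setd5+/- pallial cells. Without it, a comparison chosen after the data were seen, the levels were 1.16 and 1.19 against 0.957 and 0.788 (log2 difference -0.39, SE 0.091, limma adjusted p = 0.778). Both Setd5+/- libraries were lower in the pallial cells divided by Eomes, with 1.19 and 1.32 against 0.961 and 0.986 in cells with Eomes, and 1.29 and 1.43 against 1.17 and 0.693 in cells with Neurod2 and no Eomes, an order that 17.9% and 16.5% of all genes had there. In pallial cells with Bcl11b or Fezf2 the libraries overlapped (1.55, 1.37, 1.38 and 1.08), as they did in those with Top2a or Mki67 (0.857, 0.549, 0.979 and 0.529). Nr2f1 (-0.06) and Nr2e1 (-0.01) differed little and Nr2f6 was under the minimum level.

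In subpallial cells, both Setd5+/- libraries lay above both Setd5+/+ ones for Nr2f1, Nr2f2 and Nr2e1. Nr2f1 stood at 1.42 and 1.30 in the Setd5+/+ libraries against 1.57 and 2.46, a log2 difference of 0.50 (SE 0.16, unadjusted p = 0.00868 and adjusted p = 0.937 from limma). Nr2f2 stood at 0.704 and 0.807 against 0.814 and 1.36, a difference of 0.44 (SE 0.18, limma adjusted p = 0.999). This order was seen in 15.2% of the 7782 genes tested, of which 0.116% were called and 4.14% had an unadjusted p under 0.05. For both COUP-TFs Het9 decided the size, and Het5 lay nearer to the Setd5+/+ libraries than to Het9. Without Het5 the differences were 0.81 and 0.77 (limma adjusted p = 4.83e-07 and 6.43e-05), and without Het9 they were 0.19 and 0.10 (limma adjusted p = 0.999 for both). Without WT3 or WT6 the limma adjusted p was 0.0648 and 0.752 for Nr2f1, and 0.999 and 0.573 for Nr2f2. In cells thinned to 3000 UMIs, Nr2f1 was detected in 18.2% and 18.4% against 22.3% and 35.1% of the subpallial cells, and Nr2f2 in 10.5% and 12.3% against 12.8% and 19.3%. Nr2e1 stood at 0.405 and 0.363 against 0.492 and 0.413, a difference of 0.19 (SE 0.15, limma adjusted p = 0.999), and Nr2f6 differed by -0.06 (SE 0.16). The Nr2e1 difference was 0.046 after thinning and ranged from 0.085 to 0.29 with 1 library left out.

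The share of cells with Zic1 or Zic4, low in Nr2f1 and scarce in Het9, moved with this result, and its part in the result was not tested beyond leaving these cells out. Without them, Nr2f1 averaged 1.74, 1.66, 1.81 and 2.50 and Nr2f2 0.839, 1.03, 0.971 and 1.34 in the remaining 1463 subpallial cells, and the Nr2f2 libraries overlapped. Those of Nr2e1 overlapped too (0.436, 0.361, 0.500 and 0.414). For Nr2f1 and Nr2f2 the log2 differences were then 0.31 (SE 0.14) and 0.27 (SE 0.16), with adjusted p = 0.998 for both from limma. This comparison was chosen after the data were seen. Among the Htr3a cells without Lhx6, both Setd5+/- libraries lay above both Setd5+/+ libraries for either gene, with 18, 31, 18 and 25 cells in the 4 libraries, an order that 15.8% of all genes had there. The 813 cells with Top2a or Mki67 had it too (15.9% of all genes), with Nr2f1 at 1.34 and 1.13 against 1.37 and 1.65, Nr2f2 at 0.465 and 0.429 against 0.587 and 0.743, and Nr2e1 at 0.543 and 0.475 against 0.607 and 0.576. In the Lhx6 cells the genotypes overlapped for both genes. In the Ebf1 cells Nr2f2 was lower in both Setd5+/- libraries (0.495 and 1.36 against 0.192 and 0.149), as were 16.2% of all genes, while Nr2f1 was higher in both, as were 15.4%. No test was made in these groups.

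The difference between the classes in the genotype difference was tested within libraries. For Nr2f2 the subpallial difference exceeded the pallial one by 0.88 on the log2 scale (SE 0.28, unadjusted p = 0.0149 and adjusted p = 0.996 from limma), and by 0.72 (SE 0.24) without the Zic cells. For Nr2f1 it was 0.56 (SE 0.24) and 0.37 (SE 0.21) without the Zic cells, ranging from 0.22 to 0.90 with 1 library left out. For Nr2e1 it was 0.20 (SE 0.13) and 0.17 (SE 0.14) without the Zic cells. The limma fit on all class cells gave adjusted p = 0.996 for both. Both Setd5+/- libraries were higher in this value for all 3 genes, as for 15.9% of all genes. No gene of 7256 passed this limma test (0% called), and 4.49% had an unadjusted p under 0.05. Without Het5, the Nr2f2 value was 1.38 (limma adjusted p = 4.51e-07). It was not called without Het9 (0.37, limma adjusted p = 0.970), WT3 or WT6 (limma adjusted p = 0.997 and 0.999).

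Over the clusters, 35 tests of members could be made and limma called none of them, as it called 0.107% of 98208 tests of all genes. Of the 35, 10 had p under 0.05 before adjustment, against 4.91% of all tests. Both Setd5+/- libraries were higher in 8 and lower in 4 of the 35, against 16.6% and 17.0% of all tests. The 35 reuse the same 4 libraries and include the Dct and Cd74 clusters, whose levels are not 4 independent values. These counts therefore cannot show an excess. Nr2f1 in the Dct cluster, with 12 UMIs, is among the 8. Without shared barcodes, 31 tests could be made. The smallest adjusted p belonged to Nr2f1 in the interneuron-like cluster, with 1.28 and 1.51 against 2.34 and 4.02 counts per 10000, a log2 difference of 1.09 (SE 0.21, limma adjusted p = 0.0734). Nr2f2 differed there by 0.97 (SE 0.21, limma adjusted p = 0.126). In this cluster 0.130% of 7674 genes were called and 17.1% had both Setd5+/- libraries higher. Cells with Zic1 or Zic4 were 33.1%, 35.3%, 22.5% and 4.60% of it, and without them the differences were 0.73 (SE 0.19) and 0.59 (SE 0.20), with limma adjusted p = 0.468 and 0.9996. The Nr2f1 call changed with the processing. With a pseudocount of 1 and without shared barcodes the limma adjusted p was 0.0440 and 0.0232. Without WT3, WT6 or Het5 the limma adjusted p was 0.0132, 0.000370 and 1.15e-05, and without Het9 it was 0.163 with a difference of 0.71. Nr2f2 was called without WT6 or Het5 (limma adjusted p = 0.00162 and 0.000249).

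Nr2f1 in the Gsx1 cluster stood at 1.31 and 0.814 against 1.43 and 2.34, a log2 difference of 0.77 (SE 0.21, limma adjusted p = 0.162). With 1 library left out the difference ranged from 0.43 to 1.10. It was called without WT3 or Het5 (limma adjusted p = 0.00302 and 0.000134) and missed the threshold without WT6 or Het9 (0.610 and 0.999). Here 0.176% of genes were called and 17.8% had both Setd5+/- libraries higher. Nr2f2 in the Cxcl12 cluster, as in all pallial cells, was lower, with 0.876 and 0.865 against 0.706 and 0.451 (log2 difference -0.54, SE 0.16, limma adjusted p = 0.822). With 1 library left out it ranged from -0.82 to -0.27. The limma adjusted p was 0.0307 without Het5, 0.995 without Het9, 0.472 without WT3 and 0.334 without WT6. In that cluster 0.0916% of genes were called and 16.1% had both Setd5+/- libraries lower. In the Hells cluster, also mostly pallial, Nr2f2 ran the other way, with 0.259 and 0.357 against 0.485 and 0.506 (log2 difference 0.56, SE 0.37, limma adjusted p = 0.994). In the Tac2 cluster, which held 1291 of the 3756 Nr2f2 UMIs, the genotypes overlapped (3.51 and 2.48 against 2.56 and 2.15). They overlapped in the Tfap2d and Cntn2 clusters too. In the intermediate progenitor-like cluster both Setd5+/- libraries were lower.

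**Figure D5:**
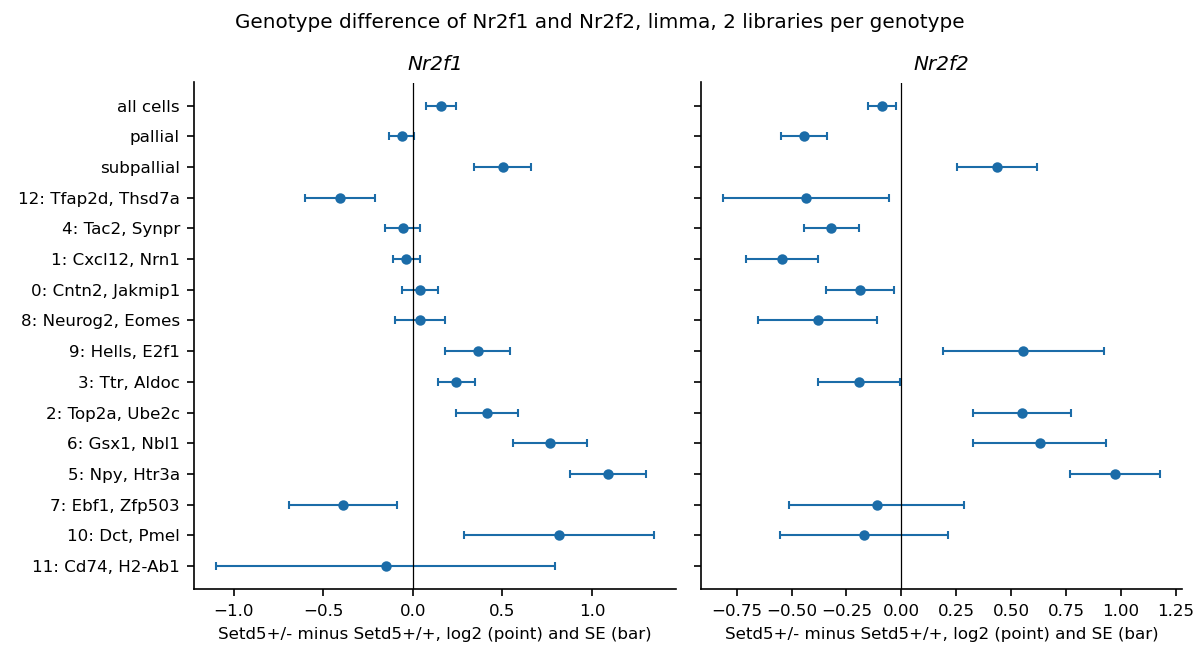
Log2 difference of Nr2f1 and Nr2f2 between Setd5+/- and Setd5+/+ (points, horizontal axes) with its standard error from limma (bars) in all cells, in the 2 classes and in the clusters tested, with 2 libraries per genotype. The largest differences are those of the Npy and Htr3a cluster (1.09 and 0.97), and no point passed the threshold after adjustment.

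Other genes of the same pathways were taken from 6 lists. Between classes, the list of 20 cortical area and gradient genes had 14 measured members, 9 of them with all subpallial libraries below all pallial ones and 4 above, with a median log2 difference of -1.20 against -0.05 over all genes. Over all genes compared, 25.7% were lower and 19.8% higher by this measure, the background for the counts of each list. The widest were those of Emx1 (2.28 ± 0.112 in pallial and 0.0765 ± 0.0233 in subpallial cells) and Bhlhe22 (1.38 ± 0.142 and 0.0347 ± 0.00719; SD, n = 4), both known from cortical area patterning. Of 15 measured cofactors, 6 were lower and 1 higher in subpallial cells (median -0.15). Rcor2, a corepressor of the Kdm1a complex, stood at 2.42 ± 0.318 in pallial and 1.05 ± 0.221 in subpallial cells, and Bcl11b, which binds COUP-TFs, at 2.15 ± 0.210 and 4.28 ± 0.562. Of 7 other nuclear receptors measured, 1 was higher (Rara, the retinoic acid receptor alpha, 0.0214 ± 0.0102 and 0.200 ± 0.0513), 1 lower (Thra, a thyroid hormone receptor, 2.05 ± 0.143 and 1.44 ± 0.169) and 5 overlapped.

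Genes of the ganglionic eminences were split. Of 8 measured caudal genes 4 were higher and 3 lower in subpallial cells, with Sp9 at 0.0803 ± 0.0153 and 4.27 ± 0.392 in pallial and subpallial cells, and Nfix at 12.97 ± 1.18 and 2.398 ± 0.482. Of 10 medial genes 7 were higher and 2 lower, with Nkx2-1 at 0.0132 ± 0.00873 and 1.47 ± 0.405 and Nrp1 at 4.42 ± 0.323 and 0.375 ± 0.112. Of 9 measured genes linked to Nr2e1 in stem cells, 5 were higher and 1 lower (median 1.0003), with Sox2 at 0.414 ± 0.0583 and 4.11 ± 0.248 (SD, n = 4). Over all genes compared, 19.8% were higher and 25.7% lower in subpallial cells. The classes were defined by Dlx1, Dlx2, Neurod2 and Eomes, so the counts of these lists describe the classes and carry no test.

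Between genotypes, 1 gene of the 6 lists was called, in subpallial cells, where 0.116% of 7782 genes were called. Nrp2, a semaphorin receptor subunit of the list of caudal eminence genes and a known target of COUP-TFs, had 0.179 and 0.254 counts per 10000 in the Setd5+/+ subpallial cells against 0.0516 and 0.0124 in the Setd5+/- ones, a log2 difference of -1.27 (SE 0.19, limma adjusted p = 0.0220). Both Setd5+/- values lay under the minimum mean of 0.1, so Nrp2 passed that filter only through the Setd5+/+ libraries. The call thus depends on a filter that the difference itself decides. It was lost with a pseudocount of 0.01, with all genes kept and with cells of both classes assigned (log2 differences -2.59, -1.27 and -1.27, limma adjusted p = 0.0710, 0.244 and 0.0737). With a pseudocount of 1 the difference was -0.24 and stayed called, so its size depends on the pseudocount. Nrp2 fell under the minimum level without the Zic cells, without WT6 and after thinning, and could not be tested there. The other measured members of that list numbered 7 in subpallial cells, and none was called. Of the medial eminence genes none of 11 was called in subpallial cells, with a median of -0.16. Lhx8 stood at 0.600, 0.860, 0.833 and 0.0616 and Sst at 0.477, 0.0148, 0.0492 and 0, and either varied as much within a genotype as between them.

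The remaining lists had no call between genotypes in all, pallial or subpallial cells. Over all cells, the medians were 0.08 for the 14 measured area genes, 0.01 for 15 cofactors, 0.09 for 8 other nuclear receptors, -0.12 for 8 caudal and -0.27 for 10 medial eminence genes, and 0.0033 for 11 genes linked to Nr2e1, against -0.0024 over all genes. The Setd5+/- libraries had fewer subpallial cells (24.2% and 22.5% against 28.9% and 31.3%), a shift that moves with values over all cells and whose part in them was not tested. The area gene Lhx2, which gives the cortical field its identity, had 4.07 and 4.31 against 5.23 and 5.44 (log2 difference 0.34, SE 0.055, limma adjusted p = 0.231), and in pallial cells alone the difference was 0.19 (limma adjusted p = 0.997). Efna5, a guidance ligand, had 0.254 and 0.277 against 0.143 and 0.0972 (-0.74, SE 0.11, limma adjusted p = 0.194), and in subpallial cells alone 0.573 and 0.502 against 0.321 and 0.239 (limma adjusted p = 0.190). Nfix had 7.63 and 7.17 against 9.36 and 9.82 (0.37, SE 0.056, limma adjusted p = 0.178), with 0.22 in pallial cells alone (limma adjusted p = 0.511). Nkx2-1 had 0.569 and 0.662 against 0.407 and 0.209 (-0.85, SE 0.21, limma adjusted p = 0.708).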

How the data were processed

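Sorted cortical cells of 4 fetuses, 2 of each genotype, were measured by single-cell (sc) RNA-Seq. The authors deposited natural log values, where 1 is added to a gene's counts per 10000 UMIs in that cell, for 16600 genes and 6562 cells, made from 10x Genomics 3′ v2 libraries. The submitters' processing notes name Seurat 2.3.0, Cell Ranger 2.1 and the build mm10. How cells were filtered, which annotation was used and whether strand was counted is not given in the sources used here. Every value above 0 gave whole UMIs within a tolerance of 0.001, with 1258 to 14996 UMIs per cell. Cell name prefixes give the genotype and no replicate number, so libraries are named by prefix.

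Levels are mean counts per 10000 over the cells of a library. Genotypes were compared with limma (trend) on log2(level + 0.1), for genes with a mean of at least 0.1, with Benjamini-Hochberg adjustment over all of them and a threshold of 0.05. Such differences understate the change of low genes. The plan allowed for raw counts, and limma was used because the file holds log values. Clusters came from 2000 variable genes, 20 principal components, 20 neighbors and Leiden at resolution 0.4, and were tested with at least 20 cells in every library. Doublets, called with Scrublet, were kept. At this sample size the smallest 2-sided p of an exact permutation test is 0.33. Named genes are the members, the library and class markers, the 3 genes most like each member over clusters, neighbors that start within 10 kb or overlap a member, and, from each list, called genes and the 2 of largest difference, not all of which are reported here. Members and lists were chosen with earlier results of these data known.

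The class differences of the members and the genotype differences of the members and Nrp2 were recomputed, where the choice applied, with a pseudocount of 0.01 or 1, with all genes kept, with a library left out, with summed UMIs, on cells without shared barcodes, without doublets or thinned to 3000 UMIs, with classes by at least 2 UMIs, with cells of both classes given to the class with more UMIs and, chosen after the data were seen, without Zic1 and Zic4 cells or, in pallial cells, without the Tfap2d cluster. In clusters, summed UMIs and other class rules were not run. The order of clusters, the ratios, the levels by Nr2f2 and the correlations were not recomputed. The limma step was also run on simulated data, as a check of the code whose outcome is not reported here. Tests ran in limma 3.58.1 (R 4.3.3), clustering in scanpy 1.11.5 with leidenalg 0.10.2, and the rest in Python 3.11.15 (scipy 1.17.1, numpy 2.4.6, pandas 2.3.3, matplotlib 3.10.9, scikit-learn 1.9.0).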

Additional observations from a re-analysis of the deposited data

Results flagged for a closer look

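Nr2f2 was lower in both Setd5+/- libraries in pallial cells and higher in both in subpallial cells. The genotype difference in subpallial cells exceeded that in pallial cells by 0.88 on the log2 scale (SE 0.28). The difference itself was tested within libraries and did not pass (limma adjusted p = 0.996). The subpallial part rested mostly on Het9, where cells with Zic1 or Zic4 were 3.08% of subpallial cells against 16.9% to 23.9% in the other libraries.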

How the results depend on the processing

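No paired analysis was possible because the libraries of the 2 genotypes come from different fetuses, no label ties 1 to another, and the cell names do not give the replicate numbers of the labels. Only the classes were compared within libraries. With 2 libraries per genotype, results rest on single libraries, and leaving 1 out moved the subpallial difference from 0.19 to 0.81 for Nr2f1 and from 0.10 to 0.77 for Nr2f2, the pallial difference of Nr2f2 from -0.61 to -0.28, and its difference between classes from 0.37 to 1.38 (log2). These 4 kept their direction under every alternative run. The differences nearest 0 turned. In all cells, Nr2e1 was at 0.0015 with a pseudocount of 1, 0.014 with summed UMIs, 0.0023 without shared barcodes and -0.22 to 0.21 with a library left out. Nr2f6 there was at 0.0014 with a pseudocount of 0.01, 0.011 with summed UMIs and -0.13 to 0.12 with a library left out. In pallial cells Nr2e1 was at 0.048 with classes by at least 2 UMIs, 0.0019 without the Tfap2d cluster and -0.16 to 0.14 with a library left out, Nr2f1 at -0.16 to 0.035, and Nr2f6 at 0.028 with summed UMIs, 0.076 with cells of both classes assigned and -0.21 to 0.19. In subpallial cells Nr2f6 was at 0.014 with cells of both classes assigned and -0.16 to 0.032 with a library left out, and its difference between classes at -0.16 to 0.049. Nr2f1 in the Cxcl12 cluster was at 0.031 after thinning and -0.11 to 0.039 with a library left out.

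Tests of members called in clusters numbered 1 with a pseudocount of 1 and 1 without shared barcodes, both of Nr2f1 in the cluster led by Npy and Htr3a, and 0 to 6 with a library left out (6 without Het5). The subpallial minus pallial difference was 0.67 and 0.061 for Nr2f6 and 1.48 and 0.31 for Nr2e1 with pseudocounts of 0.01 and 1, since the pseudocount weighs most on low genes. Nrp2 in subpallial cells missed the threshold with a pseudocount of 0.01, with all genes kept and with cells of both classes assigned (limma adjusted p = 0.0710, 0.244 and 0.0737). For other changes of a call the cause was not tested. The UMIs of Nr2f6, 460 in all, limit every statement on it.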
